A study of Mus musculus with 6 samples.

Results

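The genes described here encode 6 methyltransferases of H3K36 other than NSD1, namely Nsd2, Nsd3, Ash1l, Setd2, Setmar and Smyd2. Chromatin accessibility around them was read from ATAC-seq peaks of untreated mouse embryonic stem cells, in which the Tn5 transposase had cut open DNA. A peak belonged to a gene if it overlapped the RefSeq span of that gene widened by 50 kb on each side. This gave 57 peaks of the 77629 in the list, around 6 of 21887 protein-coding genes, and no peak fell in more than 1 window. The cells were of the E14 line, carried an NSD1-dTAG knock-in at the Nsd1 gene, grew in 2i/LIF medium and received no dTAG-13, the degrader that acts on the tagged protein. The labels also list the same line after 1, 6 and 24 h of 500 nM dTAG-13, and day 6 embryoid bodies with and without dTAG-13. Those 5 samples were not used here, and the effect of losing NSD1 on these genes was not measured. The labels list 1 sample per group and do not say whether the line is a single clone.

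H3K36 methylation is placed mainly over transcribed genes, and its different degrees are made by different enzymes. NSD1, NSD2, NSD3 and ASH1L make the mono- and dimethylated forms, and SETD2 travels with elongating RNA polymerase II and makes the trimethylated form. In embryonic stem cells the dimethylated form is also found between genes, where it is linked to DNA methylation by DNMT3A. SETMAR and SMYD2 have been reported to methylate H3K36, and SMYD2 is better known for substrates that are not histones. In human and other anthropoid primates SETMAR is fused to a transposase of mariner type.

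All values come from 1 library, and the intervals below cover counting error only. The summit pileup is the count of reads or fragments that cover the highest point of a peak, recovered from the deposited statistics, and the fold enrichment is the authors' ratio of that pileup to the local background. Both describe and rank peaks within this list. At the ends of genes marking naive embryonic stem cells, 6 of 7 had a peak, with pileups from 58 to 152, and the last, Esrrb, had peaks in its body. Of 6 fibroblast or feeder genes 4 had a gene-end peak, with pileups from 7 to 38. Over all protein-coding genes 66.5% had one, so the second count is close to that share.

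RefSeq promoter sequence of GRCm38.p6 was at hand for 3 of the 6 genes and is shown because each gene's end peak covers it at least in part. The lines give the 250 bases before the start in the promoter table, 5′ to 3′ along the gene, and capitals mark the GC box GGGCGG, the site that SP and KLF factors bind, read on either strand. That start is the end of the gene span for Setmar, but lies 97 bp inside the span of Setd2 and 204 bp inside that of Smyd2, so as many of the bases shown for these genes belong to their spans. Setd2 lies on the plus strand, Setmar on the plus strand and Smyd2 on the minus strand, and the windows with the 50 bases after the start are chr9:110532347-110532646, chr6:108064795-108065094 and chr1:189922242-189922541.
Setd2: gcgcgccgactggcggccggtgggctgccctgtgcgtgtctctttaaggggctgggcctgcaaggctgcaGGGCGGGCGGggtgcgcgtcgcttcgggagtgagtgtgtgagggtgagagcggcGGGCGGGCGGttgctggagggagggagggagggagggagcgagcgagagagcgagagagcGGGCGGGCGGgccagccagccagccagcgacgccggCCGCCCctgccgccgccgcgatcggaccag
Setmar: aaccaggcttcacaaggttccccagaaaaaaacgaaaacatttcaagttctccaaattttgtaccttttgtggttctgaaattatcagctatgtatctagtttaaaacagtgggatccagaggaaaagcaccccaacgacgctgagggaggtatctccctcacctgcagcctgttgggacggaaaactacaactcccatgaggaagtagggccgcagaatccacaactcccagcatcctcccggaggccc
Smyd2: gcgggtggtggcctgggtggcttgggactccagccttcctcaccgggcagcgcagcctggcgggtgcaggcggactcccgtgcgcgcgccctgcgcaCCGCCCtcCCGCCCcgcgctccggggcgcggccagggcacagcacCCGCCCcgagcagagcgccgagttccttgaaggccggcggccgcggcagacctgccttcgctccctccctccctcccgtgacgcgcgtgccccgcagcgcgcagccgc

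Base composition set the Setmar promoter apart from those of Setd2 and Smyd2. The order of the 3 promoters by CpG ratio was not that of their peak heights. Over the 300 bases the GC content was 77.3% for Setd2, 48.7% for Setmar and 79% for Smyd2, against a median of 52.7% over 32851 promoters. The observed over expected CpG ratio was 0.88 for Setd2, 0.56 for Setmar and 0.93 for Smyd2, against a median of 0.38. The GC box occurred 7 times at Setd2, 3 times at Smyd2 and not at Setmar, and 35.7% of all promoters held it. At Setd2, 6 of the 7 lie in overlapping pairs that share 2 bases. The NRF1 site GCGCATGC was matched once, at Smyd2 after the start, and 2.71% of all promoters held it. None of the 3 windows held the CCAAT box CCAAT, the ETS site CCGGAAG, the YY1 site AAGATGGCG, the TATA box TATAAA, the CRE TGACGTCA or the ZNF143 site ACTACAATT. Those were held by 37.4%, 8.86%, 1.40%, 13.6%, 1.79% and 0.393% of all promoters in that order. Only these exact words were searched, so other forms of the same sites were not counted. The Setmar sequence above holds actacaact, which is close to the ZNF143 word.

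The CpG-rich Smyd2 promoter lay under a peak with a pileup of 33, whereas the CpG-poorer Setmar promoter lay under a peak of 106. The Setmar peak covered 162 of the 300 bases, and its summit lay 229 bp past the start of the promoter table. Among 4900 promoters with a CpG ratio from 0.8 to 1.0, 96.9% lay under a peak. Their median pileup was 80, and the Smyd2 peak was taller than 9.44% of these. Setd2, with a pileup of 96, was taller than 62.4% of the same promoters. Among 4203 promoters with a ratio from 0.4 to 0.6, 57.0% lay under a peak. Their median pileup was 49, and Setmar was taller than 86.1% of these. The placements describe this library.

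Each of the 6 genes had a peak within 1 kb of an annotated end, as did 66.5% of all protein-coding genes. In descending order, the pileup of the tallest gene-end peak was 107 for Nsd3 (exact Poisson 95% interval 87.7 to 129), 106 for Setmar (86.8 to 128), 97 for Ash1l (78.7 to 118) and 96 for Setd2 (77.8 to 117). Nsd2 followed with 42 (30.3 to 56.8) and Smyd2 with 33 (22.7 to 46.3). The interval of Setd2 did not overlap that of Nsd2, and every other pair of neighbours in this order did overlap. Nsd3, Setmar, Ash1l and Setd2 thus stood in an upper group and Nsd2 and Smyd2 in a lower one, with a median of 96.5 over the 6 genes. Over the 14552 protein-coding genes that had such a peak the median was 66 and the quartiles were 37 and 101, so Nsd2 lay above the lower quartile and Smyd2 below it.

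By fold enrichment the genes were less clearly split. The highest gene-end fold was 17.7 for Nsd3, 16.2 for Setmar, 11.5 for Setd2, 9.54 for Ash1l, 8.76 for Smyd2 and 8.52 for Nsd2. The 17.7 of Nsd3, like its pileup of 107, came from a peak beyond its span and within 1 kb of an end of Plpp5. The peak at the other end of Nsd3 had a pileup of 100 and a fold of 8.46, below the fold of Nsd2. The median over the 6 genes was 10.5, against 11.1 over those 14552 genes. Ash1l had nearly the pileup of Setmar but a lower fold, with a local background of 9.27 at Ash1l and 5.59 at Setmar. Nsd1, the gene of the tagged protein, had 2 gene-end peaks with pileups of 39 and 78, and its highest gene-end fold was 5.34.

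**Figure D1:**
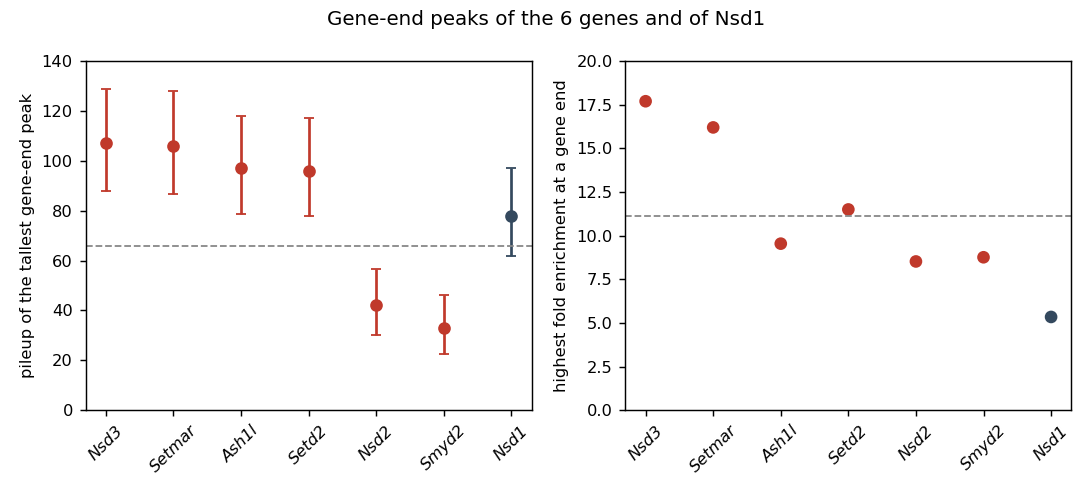
Left, pileup of the tallest gene-end peak of each gene with its exact Poisson 95% interval, and right, the highest fold enrichment at a gene end, for the 6 genes (red) and Nsd1 (dark). Dashed lines are the medians over the 14552 protein-coding genes that have such a peak, 66 and 11.1, and 4 of the 6 genes lie above the first.

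In Nsd2, a dimethyltransferase known for its overexpression in multiple myeloma, the sites at neighbouring genes were taller than its own. The gene spans 77.3 kb at chr5:33820676-33897966, and its single end peak, at chr5:33819721-33821493, was 1773 bp wide with a pileup of 42. The other peak in the gene, 5.55 kb inside, was taller at 56, with a fold of 13.4 against 8.52 at the end. Its pileup interval of 42.3 to 72.7 overlapped the 30.3 to 56.8 of the end peak. That inner peak holds the annotated start of Gm52782, a predicted gene that lies within Nsd2 and whose other end lies within 1 kb of the end peak. From the inner peak onward no peak was listed for 86.4 kb, to beyond the far end of the gene. Outside, the peak at Letm1, which encodes a mitochondrial inner membrane protein, reached 131, and that at Nelfa, a subunit of the factor that pauses RNA polymerase II, reached 130. The other 3 outside peaks had pileups of 12, 21 and 45.

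In Nsd3, the paralogue of Nsd2, both ends of the gene were accessible. The gene spans 118 kb at chr8:25601601-25719667, and the peaks at chr8:25601534-25602991 and chr8:25719933-25720682 had pileups of 100 and 107 and folds of 8.46 and 17.7. The second of these lies at the end of Plpp5, a lipid phosphatase gene, as well. Among protein-coding genes over 4 kb, 13.3% had a peak at both ends and 60.4% at a single end. The body of Nsd3 held 4 peaks, all low, with pileups of 12, 13, 13 and 19. A further tall peak, of 103, stood 4.05 kb from Nsd3 at an end of Letm2, the paralogue of Letm1, so that a Letm gene with a tall peak lay next to each of these NSD genes. The distance was 37.9 kb for Letm1 and Nsd2. The tallest outside peak, of 109, lay at Ddhd2, a phospholipase gene, and the remaining 5 had pileups from 12 to 22.

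In Ash1l, the homologue of a trithorax-group gene of Drosophila, no peak was listed in the body. The gene spans 129 kb at chr3:88950414-89079375, and its end peak at chr3:88949684-88951265 was 1582 bp wide with a pileup of 97. This peak also lies within 1 kb of an end of Dap3, which encodes a protein of the mitochondrial ribosome and whose span overlaps that of Ash1l. From that peak onward the list was empty for 139 kb. Of 972 other genes with a gene-end peak and a length within 25% of that of Ash1l, 99 (10.2%) had no body peak, and the median was 3. Beyond the gene stood peaks of 98 and 56 at annotated starts of Rusc1 and a peak of 149 at Fdps, the gene of farnesyl diphosphate synthase. On the other side Msto1 had a peak of 117, and the remaining 4 outside peaks had pileups of 10, 26, 30 and 36.

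In Setd2, whose product makes the trimethylated form, the end peak lay at the start of the gene. The gene spans 86.1 kb at chr9:110532500-110618633, and the peak at chr9:110531946-110533027 had a pileup of 96, a fold of 11.5 and its summit 122 bp before the end of the span and 219 bp before the start in the promoter table. The single body peak, of 51, lay 1.39 kb from the far end, and 83.8 kb in between held none. Outside, 10 peaks were listed. The tall ones were 102 at the neighbouring ends of Nradd and Nbeal2, 115 at those of Nbeal2 and Ccdc12, and 105 at a further annotated start of Ccdc12. A peak of 44 lay 3.32 kb before the gene, and the other 6 ranged from 8 to 43.

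Setmar, the shortest of the 6 genes, had its own end as the tallest site of its window. The gene spans 12.1 kb at chr6:108065045-108077127, and its window held 8 peaks, or 7.14 per 100 kb. That was the highest density of the 6 windows, but with genes widened by 100 kb Nsd3 led with 7.23 against 5.19 for Setmar, and with a pileup of at least 20 required Setd2 led with 5.37 against 4.46. Its end peak at chr6:108064933-108065836 had a pileup of 106 and a fold of 16.2, and a body peak of 48 lay 5.99 kb inside. The 6 outside peaks were lower, with pileups of 11, 11, 16, 23, 26 and 34. The tallest of these lay at Sumf1, whose product activates sulfatases, with a fold of 10.8.

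In Smyd2 no peak of the window was tall. The gene spans 42.0 kb at chr1:189880492-189922495 and starts at the end with the higher coordinate, where the peak at chr1:189921865-189922664 had a pileup of 33. Its summit lay 212 bp inside the end of the span and 8 bp from the start in the promoter table. Within the body, 3 peaks had pileups of 21, 28 and 50, so that the last, 5.89 kb from the start-side end, was taller than the end peak itself, although its interval of 37.1 to 65.9 overlapped the 22.7 to 46.3 of the end peak. The 4 outside peaks, of 6, 13, 16 and 38, all lay beyond the other end of the gene. The tallest of them stood inside Ptpn14, a phosphatase gene. No peak was listed in the 50 kb on the start side beyond the end peak.

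**Figure D2:**
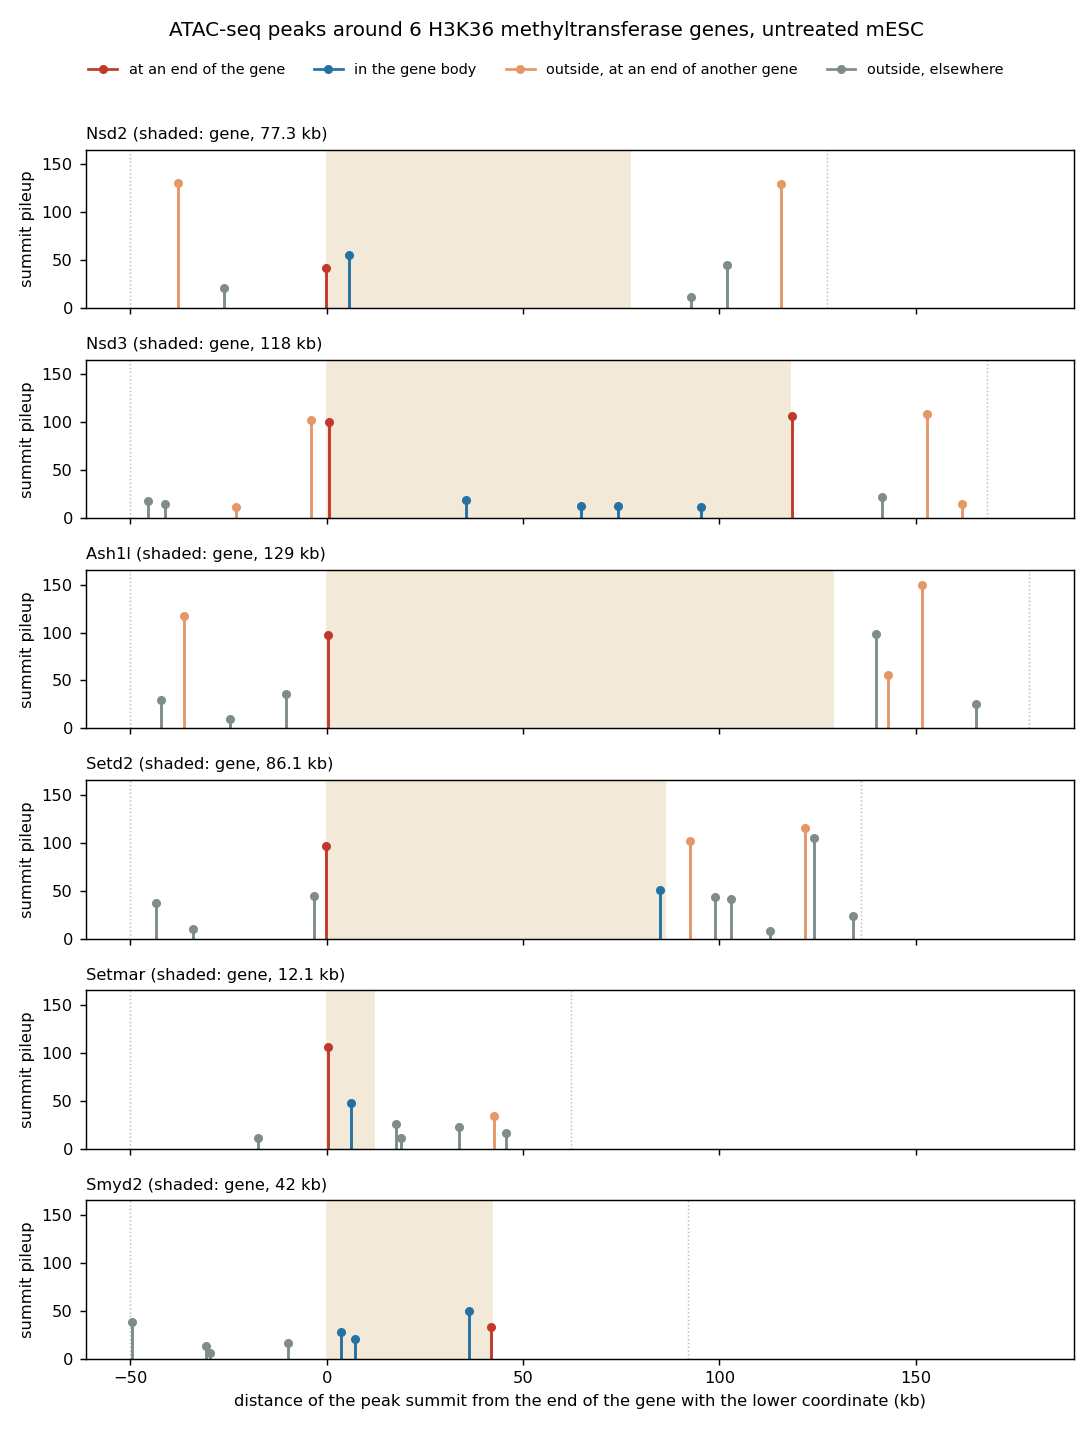
Summit pileup of each peak against the distance of its summit from the end of the gene with the lower coordinate (kb), 1 panel per gene, with the gene shaded and dotted lines at 50 kb from its ends. Colours give the place of the peak, and the shaded span of Ash1l holds its end peak alone while Smyd2 has no pileup above 50.

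Pooled over the windows, 7 peaks (12.3%, Clopper-Pearson 95% interval 5.08 to 23.7) lay at an end of the 6 genes, 10 (17.5%, 8.75 to 29.9) in a body and 40 (70.2%, 56.6 to 81.6) outside. These intervals treat peaks as independent, although they share 6 windows, and give no spread between genes. The shares also depend on the 50 kb by which genes were widened. With every protein-coding gene in the windows considered, 20 of the 57 (35.1%) lay at a gene end, against 20.3% over all chromosomes, where a further 39.3% lay in gene bodies and 40.3% between genes. The median pileup was 97 at the ends, 24.5 in the bodies and 28 outside. The outside peaks divided by whether they lay at the end of another protein-coding gene. There the median was 106 over 12 peaks, and elsewhere it was 22.5 over 28 peaks. Over all chromosomes the medians were 54 at ends of protein-coding genes, 20 in bodies and 20 between genes. These classes take in every protein-coding gene, whereas outside peaks of the windows can lie inside a neighbouring gene, such as Ptpn14. The shares and medians of body and outside peaks are thus not of like classes. Local background differed in the same direction, with a median of 5.59 at the ends of the 6 genes, 2.89 in the bodies and 1.95 at outside peaks away from gene ends. As peaks were called without a control, background and pileup come from the same library and are not independent. The part of background in the pileups was not tested.

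Pileups in the windows left a gap, with no value between 56 and 96. Of the 15 peaks above it, 5 lay at an end of the 6 genes and 8 at an end of another protein-coding gene. Over all chromosomes, 62.9% of peaks at or above 96 lay at an end of a protein-coding gene. The other 2 in the windows hold an annotated start, of Rusc1 near Ash1l and of Ccdc12 near Setd2. None of the 15 was a body peak, and none lay in the window of Smyd2. Away from the ends of other genes and from these 2, no outside peak exceeded 45. Over all chromosomes 11.4% of peaks had pileups inside that gap and 6.99% lay at or above 96, against 26.3% of the peaks in the 6 windows. The windows are centred on genes with an end peak, and 35.1% of their peaks lay at a gene end, against 20.3% over all chromosomes. Windows around other genes were not compared for this share. The limits of the gap were chosen after the values were seen.

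**Figure D3:**
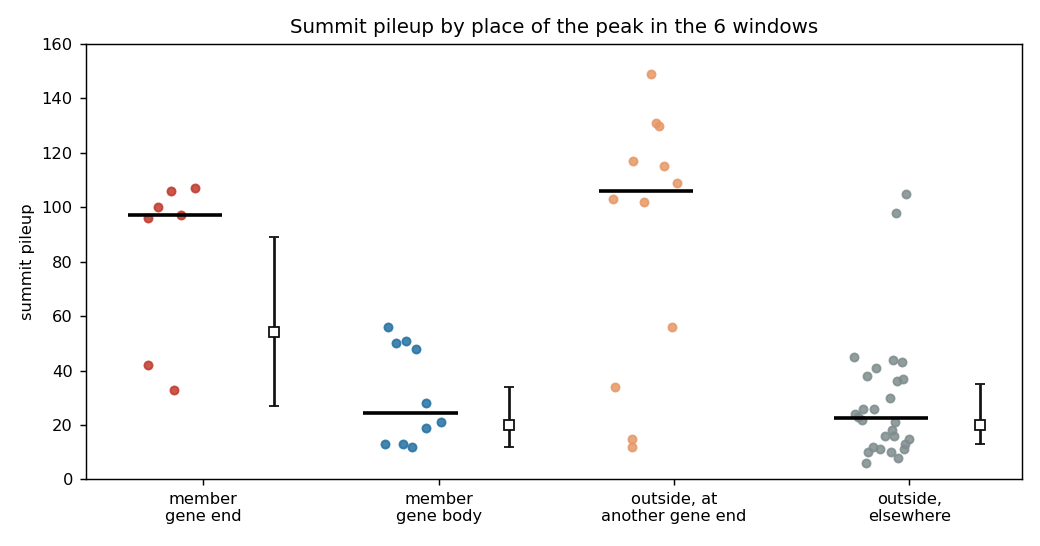
Summit pileup of the 57 peaks by place, with points for peaks and black lines for their medians of 97, 24.5, 106 and 22.5. Open squares with bars to the right are the median and quartiles over all chromosomes for ends of protein-coding genes, their bodies and sequence between them, and no such reference is drawn for the third column. The last column also holds peaks inside neighbouring genes, which its reference leaves out.

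The windows held from 7 peaks at Nsd2 to 13 at Nsd3, with 12 at Setd2, 9 at Ash1l and 8 each at Setmar and Smyd2. With peaks of a pileup of at least 20 alone, Nsd3 held 5, as did Setmar and Smyd2, against 6 at Nsd2, 8 at Ash1l and 10 at Setd2. The median over the 6 genes was 8.50, against 7 over all protein-coding genes with quartiles of 3 and 11. Per 100 kb of window the values were 7.14 for Setmar, 6.45 for Setd2, 5.96 for Nsd3, 5.63 for Smyd2, 3.95 for Nsd2 and 3.93 for Ash1l, against a median of 5.07 over all protein-coding genes. The window of Nsd1 held 24 peaks, or 11.5 per 100 kb, and its tallest outside peak reached 183. No peak outside the 6 genes was as tall as that, the highest being 149 at Fdps. The interval of the Fdps peak, 126 to 175, overlapped the 157 to 212 of the peak near Nsd1.

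Ash1l, Nsd2 and Setd2 had fewer body peaks than the median gene of their length, and Nsd3, Smyd2 and Setmar had more. Of the 6 genes only Ash1l lay outside the quartiles for genes of its length, which were 1 and 6. The 4 body peaks of Nsd3 had pileups from 12 to 19, all under the alternative limit of 20. A body peak was present in 5 of the 6 genes, and in 46.3% of all protein-coding genes, most of which are shorter. Ash1l had none, Nsd2, Setd2 and Setmar had 1 each, Smyd2 had 3 and Nsd3 had 4. Among genes with a gene-end peak and a length within 25%, the median number was 3 for Ash1l, 2 for Nsd2, 3 for Setd2, 0 for Setmar, 1 for Smyd2 and 3 for Nsd3. As few body peaks or fewer were found in 37.2% of the genes as long as Nsd2 and in 35.0% of those as long as Setd2. The corresponding share was 63.6% for Nsd3, 83.5% for Smyd2 and 88.3% for Setmar. Nsd1, at 109 kb, had 6, with a median of 3 in genes of its length.

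**Figure D4:**
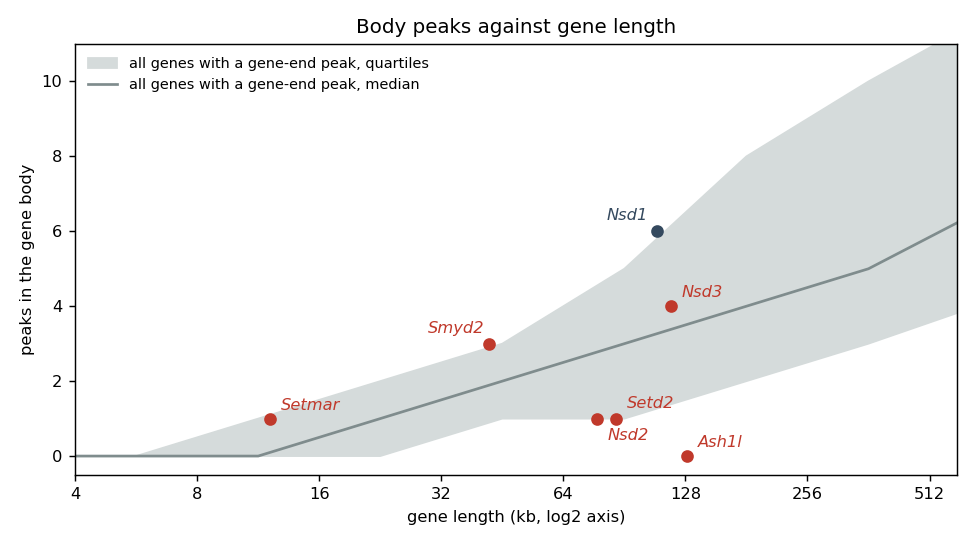
Number of peaks in the gene body against gene length (kb, log2 axis) for the 6 genes (red) and Nsd1 (dark). The band and line are the quartiles and median over 14401 protein-coding genes of at least 1 kb that have an end peak, in bins of length, and Ash1l lies under the band with 0 body peaks.

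Of 23 other genes listed as writers, erasers, readers or partners of H3K36 methylation, 21 had a peak at an end. The median pileup there was 90, against 66.5% and 66 over all protein-coding genes. The writers Nsd1 and Prdm9 both had one. Among the listed demethylases 6 of 7 had one, with pileups from 22 at Kdm2b to 204 at Kdm4b, and Kdm4c had none at its ends and 4 in its body. Whether each product acts on H3K36, that of Kdm4d among them, was not examined here. Among readers of the mark, 10 of 11 had one, from 18 at Phf19 to 225 at Brpf1. Dnmt3a, whose product reads the dimethylated form, had none at its ends and 9 in its body. The 3 genes of partners of SETD2 at RNA polymerase II had pileups from 80 to 98. With a pileup of 33, Smyd2 was lower than all but 2 of the 21, those at Kdm2b and Phf19.

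Genes elsewhere in the genome with the most similar values were found by the distance over 4 standardised measures in this library, which were the gene-end pileup, the gene-end fold and the numbers of body and outside peaks. For Ash1l this was Zbed6 (distance 0.0473), with a gene-end pileup of 97, no body peak and 8 outside peaks, as for Ash1l itself. The gene closest to Setd2 was Cpsf6 (0.0664), with a gene-end pileup of 93, and that closest to Setmar was Kifc5b (0.0534), with 102. Adcy2 (0.0534) was closest to Smyd2, with a pileup of 34 and 3 body peaks. Nsd2 and Nsd3 had less similar nearest genes, G6pdx at 0.148 and Ap1g1 at 0.200. The measure ranks 14552 genes by values of a single library and leaves out gene length. A match without body peaks, such as Zbed6, need not be as long as Ash1l.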

How the data were processed

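ATAC-seq peaks of 1 library, untreated E14 NSD1-dTAG embryonic stem cells, were analysed. Samples were grouped by title, since the labelled treatment is 6 h for the 1 h and 24 h samples too. The submitters' processing notes name Bowtie2 2.3.4.1, SAMtools 1.9 and MACS2 2.2.6, with mm10 and GRCm38.p6 as builds. The total read count, read filters and any Tn5 shift are not stated there or in the labels. The authors called peaks on this sample alone, without a control, per the label of the list. The deposited score is 10 times the deposited -log10 q, rounded down, and the deposited -log10 p and the authors' fold, a ratio to local background, refer to the summit.

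The pileup was solved from fold = (pileup + 1)/(background + 1) together with the Poisson tail behind the -log10 p. It was whole within 0.01 for 77626 of 77629 peaks, among them all 57 reported. The lowest pileup in the list was 6, so lower sites were not detectable. Duplicates, if kept, are not independent, and intervals cover counting error only.

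Genes came from a RefSeq gene table of GRCm38.p6 without a strand column. Gene ends were windows of 1 kb on either side, an overlap of 1 bp counted, and sequences, strands and starts were read from the RefSeq promoter table, which was matched by 3 of the 6 genes. No p-value was computed, as 1 library was used. The members and lists were chosen with earlier results of these data known. The text names the 6 genes, Nsd1, the gene at the tallest outside peak of each, genes at their gene-end peaks and the most similar gene over 1 Mb away. Further neighbours, listed genes and the length comparison were chosen after their values were seen. Recovery and windows were tested on simulated data. Versions were scipy 1.17.1, numpy 2.4.6, pandas 2.3.3, matplotlib 3.10.9 and Python 3.11.15.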

Additional observations from a re-analysis of the deposited data

How the results depend on the processing

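Each of the 6 genes kept a gene-end peak at a -log10 q of at least 5, at a pileup of at least 20, with end windows of 500 or 2500 bp, with the summit required in the window, and with genes widened by 20 or 100 kb. The tallest gene-end pileups did not change under these settings. Most of the settings could not change them. Widening does not enter the gene-end rule, and the lowest values, a pileup of 33 and a -log10 q of 21.5 at Smyd2, passed both limits. Only the end windows and the summit rule could have altered this result. Requiring a pileup of at least 20 gave medians of 49 in bodies and 43.5 outside. Widening by 20 kb gave an outside median of 41 and 30 peaks in all, and widening by 100 kb gave 95 peaks. Ranked by fold, 2 of the 6 genes, Nsd3 and Setmar, stayed at their rank, and ranked by -log10 q 4 did. The rank of Nsd3 rests on its peak at Plpp5, as its other end peak had a fold of 8.46. Without gene-end peaks that also lie at another gene's end, a setting chosen after seeing the data, 4 genes had one: Ash1l and Nsd2 had none, and Nsd3 had a pileup of 100. Of 101 values for single genes and for the share of all genes, 83 stayed within the limit of 1.5 times or their interval, and 18 did not. Many of the 83 could not move, such as gene-end pileups under widening and window counts under other end windows. The total is therefore no measure of stability. Widening by 20 kb moved the window count of all 6 genes. No paired analysis was possible because each group has 1 sample.

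Strand was taken from the promoter table and was not used for Nsd2, Nsd3 and Ash1l, so start and end could not be separated there. Exons and introns were not used here. The list gives no value where no peak was called, and sites under the calling threshold were not detectable. No spread between libraries can be given.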
